A study of Bos taurus with 16 samples.

Results

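The mitochondrial ribosomal protein genes described here are the 31 gene IDs, of 27607 in the deposited count table, that the study's supplementary gene tables pair with a symbol MRPL or MRPS and a number. RefSeq lists 78 bovine genes with such a symbol (49 MRPL and 29 MRPS), so the 31 genes are 39.7% of the family and the others were not analysed here. The tables list genes selected in part on these libraries: 26 of the 31 were named by a table that used liver RNA and 3 by the table that used muscle RNA. Directions in liver are therefore no independent evidence for those 26. The 5 genes named without liver RNA, MRPL13, MRPL19, MRPL45, MRPS9 and MRPS28, are given apart.

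RNA was sequenced from liver and semitendinosus muscle of 8 Holstein bull calves raised in 1 herd, of which 4 grew from in vitro produced (IVP) embryos and 4 from embryos of multiple ovulation and embryo transfer (MOET). IVP oocytes were aspirated from the ovary after mild hormonal stimulation, then matured, fertilized and cultured in serum-free medium. MOET embryos formed in superovulated, inseminated donors and were flushed from the uterus, and embryos of both origins were transferred fresh to recipient cows. IVP calves 3208, 3209 and 5833 were 103 days old and IVP calf 5841 was 98 days old. MOET calves 3217 and 3218 were 102 days old, calf 5932 was 104 days old and calf 3213 was 144 days old. Calves 3208, 3209, 3217 and 3218 were full siblings, 2 per origin, whereas the other IVP and MOET calves had different sires, and calves 3213 and 5932 also another dam.

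The mitochondrial ribosome translates the few messages encoded by mitochondrial DNA, which specify membrane subunits of the respiratory chain and of ATP synthase. All of its proteins are encoded in the nucleus, translated in the cytosol and imported, some descending from bacterial ribosomal proteins and others found in mitochondria alone. Liver and skeletal muscle both rely on oxidative phosphorylation, and inherited defects of mitochondrial ribosomal proteins can affect either organ. Of the 31 genes, 20 encode proteins of the large subunit, which forms peptide bonds, among them MRPS18A despite its symbol. The other 11 encode proteins of the small subunit, which holds the messenger RNA. By origin, 16 were classed as having a bacterial counterpart and 15, MRPS18A among them, as specific to mitochondria.

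The deposited counts, already adjusted for age by the authors, summed to between 22758137 and 24667728 per liver library and between 23677247 and 25626474 per muscle library. All 31 genes passed the filter on low counts in both organs, and the lowest count of any of them in any library was 119, for MRPS24. In RefSeq, MRPL23, MRPL38, MRPL40, MRPL45, MRPS24 and MRPS25 overlap another annotated gene, and without strand the counting could not separate their reads. The library of MOET calf 3213 lay closer to the mean of the other MOET calves than counting noise allows, with a median absolute log2 deviation of 0.0219 for liver and 0.0137 for muscle, against 0.0332 and 0.0342 from counting alone. The other calves deviated by 0.0992 to 0.372 in liver and by 0.121 to 0.189 in muscle. Calf 3213 was therefore left out of means, SDs and the values by calf (IVP, n = 4, MOET, n = 3) but stayed in the fits. In fits with no age term it thus counted as a full MOET replicate, although its values did not vary as those of a separate calf. The main fits held age as a covariate of counts that were already adjusted for age. Summed levels of 4 skeletal muscle markers lay between 131992 and 178730 CPM (counts scaled to a common library size) in muscle and between 0.072 and 0.547 CPM in liver, and 3 hepatocyte markers between 4113 and 7672 CPM in liver. Muscle of IVP calf 3209 had 46.8 CPM of the hepatocyte markers and the other muscle libraries 1.22 to 9.98 CPM.

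In liver, each of the 31 genes had a higher fitted level in IVP than in MOET calves (background 49.7% of all genes), but none passed the test. The median difference was 0.67 on the log2 scale (1.59-fold) with a range from 0.17 to 1.30, while the median over all 14290 genes tested was -0.004. By edgeR's quasi-likelihood test with Benjamini-Hochberg adjustment (FDR), 0 of 31 were called at 0.05 (background 0.0350% of all genes), with FDR between 0.125 and 0.413. Unadjusted p was under 0.05 for 25 of the 31, all with the higher level in IVP calves (background 14.8%). DESeq2 called 15 (background 11.2%). The large subunit genes had a median of 0.69 (20 genes) and the small subunit genes of 0.66 (11 genes). The genes of bacterial descent had a median of 0.65 and the mitochondria-specific genes of 0.71. The 5 genes named without liver RNA were also all higher in IVP calves, with a median of 0.26 and a range from 0.17 to 0.47, below the median of 0.70 of the other 26. In bulk tissue, more cells rich in these transcripts and more RNA per cell cannot be told apart.

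Levels below are CPM scaled over the 16 libraries, with which a gene can be compared between calves but not with another gene, since they are not divided by transcript length. MRPL41 (ENSBTAG00000039138), a mitochondria-specific protein of the large subunit, had the lowest p of the large subunit genes in liver. Its level was 21.7, 27.9, 25.9 and 55.2 CPM in the livers of IVP calves 3208, 3209, 5833 and 5841, and 10.7, 15.8 and 13.8 CPM in those of MOET calves 3217, 3218 and 5932. The groups did not overlap, and calf 5841 was far above the other IVP calves. The fitted difference was 1.22 ± 0.327 (SE) on the log2 scale, with an unadjusted p of 0.00476 and an edgeR FDR of 0.125. Among the small subunit genes, MRPS28 (ENSBTAG00000001302), the mitochondrial relative of bacterial protein S1, had the lowest p. It stood at 8.61, 9.15, 9.26 and 10.1 CPM in the IVP livers and at 5.51, 7.47 and 6.85 CPM in the MOET livers, in the same order of calves. These groups did not overlap either, and the IVP calves lay close together. Its fitted difference was 0.47 ± 0.151 (SE), with an edgeR FDR of 0.127.

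The other genes named without liver RNA showed overlapping groups in liver. MRPL13 (ENSBTAG00000006767), of bacterial descent, was measured at 10.6, 14.2, 13.9 and 18.3 CPM in IVP and 9.57, 11.1 and 10 CPM in MOET livers, and IVP calf 3208 fell within the MOET range. MRPL19 (ENSBTAG00000002557), also of bacterial descent, was at 32.1, 28, 28.1 and 35.4 CPM in IVP and 25.9, 30.5 and 25 CPM in MOET livers, so that IVP calves 3209 and 5833 were below MOET calf 3218. MRPL45 (ENSBTAG00000025001), which lies at the exit of the nascent peptide and ties the ribosome to the inner membrane, was at 10.4, 13.9, 13.4 and 14.2 CPM in IVP and 10.6, 10.2 and 11.3 CPM in MOET livers. For this gene 3 of the 4 IVP calves were above every MOET calf. MRPS9 (ENSBTAG00000006150), a conserved small subunit protein, was at 14.2, 16.4, 15.6 and 19.6 CPM in IVP and 13.7, 12.5 and 14.7 CPM in MOET livers. Here too calf 3208 fell within the MOET range. The fitted differences of these 4 genes were 0.44, 0.17, 0.26 and 0.25 on the log2 scale.

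Levels in all 4 IVP livers exceeded those in all 3 MOET livers for 25 of the 31 genes, 80.6% (background 16.3%). The exceptions were MRPL13, MRPL19, MRPL42, MRPL45, MRPS9 and MRPS23. Of the 5 genes named without liver RNA, only MRPS28 was thus without overlap. The other 26 were named through liver RNA of these libraries, so the share over the 31 is no independent evidence. Calf 5841 had the highest level of the 7 calves for 31 of 31 genes, while it was highest for 33.4% of all genes. It exceeded the mean of the other 3 IVP calves by a median of 0.74 on the log2 scale over the 31 genes, from 0.16 for MRPS28 to 1.40 for MRPS26, compared to -0.03 over all genes. Averaged over the 31 genes, the IVP livers had a log2 CPM of 4.50 ± 0.40 (SD, n = 4) and the MOET livers of 3.82 ± 0.14 (SD, n = 3), and the IVP libraries spread more widely than the MOET libraries. Among the full siblings, both IVP calves were above both MOET calves for 26 genes (background 26.7%).

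**Figure D1:**
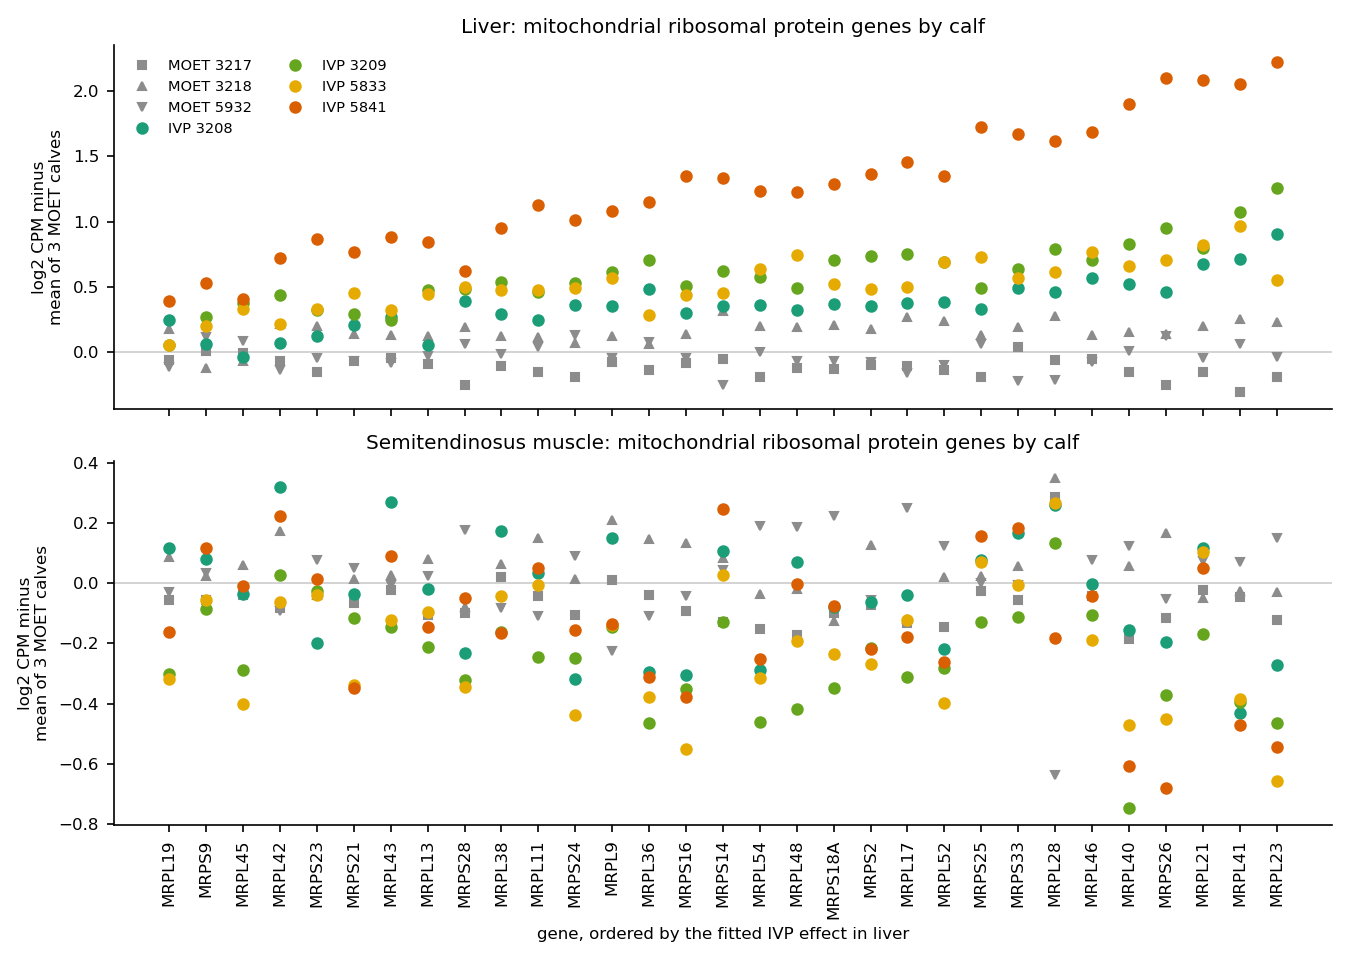
Log2 CPM of each of the 31 genes in each calf minus the mean of the 3 MOET calves, in liver (upper panel) and muscle (lower panel, other scale). Grey symbols are MOET calves and coloured circles IVP calves. In liver, IVP calf 5841 (orange) is the highest calf for 31 of 31 genes, and in 25 genes all 4 IVP calves lie above the MOET calves. In muscle the 4 IVP calves lie below the MOET calves for 8 genes.

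The calls in liver depended on which calves entered the fit and on the age term. Without calf 5841, 14 of 31 genes were called (background 8.41%), and without that calf and without the age term 25 were called (background 25.0%), with each of the 31 genes still higher in IVP calves. Without calf 3213, 19 were called (background 15.2%). With no age term and all calves, 24 were called (background 21.0%). The calls over all genes thus rose in the same fits. With neither calf 3213 nor the age term, however, 0 of the 31 and 5 of all genes were called. In that fit, unadjusted p was under 0.05 for 26 of the 31. In the fit with age, the leverage of calf 3213 was 0.988, so the age term was set almost by that calf alone. Without it, the leverage of calf 5841 was 0.907. In the 4 full siblings the median was 0.44 and none was called (background 0.132%), with a lowest FDR of 0.146 and unadjusted p under 0.05 for 20 genes.

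The genomic span of genes, the distance from start to end on the RefSeq assembly ARS-UCD2.0, moved with the IVP effect across the genes that could be named, a comparison added after the data were seen. The other named genes, which the study's tables also selected in part on these libraries, were split into quintiles of span. In liver, the median log2 IVP effect was 0.64 in the shortest quintile (725 genes), 0.28, -0.01 and -0.33 in the next ones and -0.43 in the longest (724 genes). In muscle the order was the opposite, from -0.17 in the shortest quintile to 0.18 in the longest. The mitoribosomal genes are short, with a median span of 7050 bases, and 21 of the 31 fell in the shortest 2 quintiles of the liver comparison.

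Within the shortest quintile, the 16 mitoribosomal genes had a median liver difference of 0.71, and 12 of them were above the 0.64 of the other genes. For the longer genes the gap was wider, but few mitoribosomal genes fell there. Some of these were named through liver RNA, and the other genes were also selected in part on these libraries. The 5 mitoribosomal genes of the second quintile had a median of 0.71 against 0.28, and 4 of them were above 0.28. The 6 mitoribosomal genes of the middle quintile had a median of 0.46 against -0.01, and the 3 of the next one, MRPL13, MRPL48 and MRPS25, of 0.69 against -0.33. MRPS28, the only one in the longest quintile, had 0.47 against -0.43. In muscle, the 16 genes of the shortest quintile had a median of -0.22 against -0.17, and MRPS28 in the longest had -0.22 against 0.18. In the muscle quintiles between these, the medians were -0.14, -0.06 and -0.02 against -0.05, 0.05 and 0.13. By calf, the other genes of the shortest quintile lay above the MOET mean by a median of 0.31, 0.53, 0.50 and 1.07 in the livers of IVP calves 3208, 3209, 5833 and 5841. For all 31 mitoribosomal genes, not only those of the shortest quintile, the medians in these calves were 0.34, 0.56, 0.48 and 1.22. The 4 calves stood in the same order for both. The part of span, or of anything that varies with it such as transcript length or RNA quality, in the liver result was not tested.

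**Figure D2:**
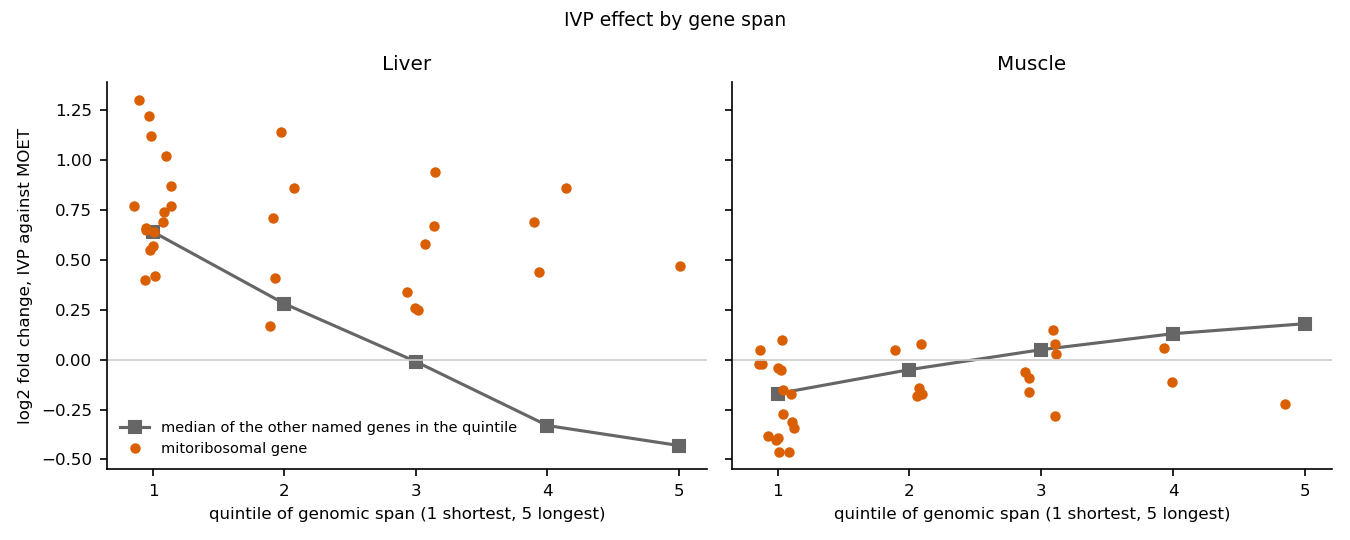
Fitted IVP effect (log2) by quintile of genomic span, in liver and muscle. Grey squares are medians of the other named genes and orange points are single mitoribosomal genes. In liver the grey line runs from 0.64 to -0.43 while the mitoribosomal genes stay above 0 in every quintile.

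In muscle, the genes did not share 1 direction: 23 had a lower (background 47.7%) and 8 a higher fitted level in IVP calves, and none passed the test. The median difference was -0.14 on the log2 scale, with a range from -0.46 to 0.15, against 0.018 over all 12854 genes. By edgeR, 0 of 31 were called (background 0.467%), with FDR between 0.0735 and 0.942. Unadjusted p was under 0.05 for 9 genes, all lower in IVP calves (background 8.43%). They were MRPL23, MRPL36, MRPL40, MRPL41, MRPL52, MRPL54, MRPS16, MRPS24 and MRPS26. DESeq2 called 3, MRPL23, MRPL41 and MRPS16 (background 3.92%), and without the age term edgeR called 6 genes (background 9.13%). The large subunit genes had a median of -0.13 and the small subunit genes of -0.17. The 28 genes named without muscle RNA had a median of -0.10.

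MRPL41 had the lowest p in muscle as well. Its level was 29, 29.7, 29.9 and 28.2 CPM in the muscles of IVP calves 3208, 3209, 5833 and 5841, and 37.9, 38.4 and 41 CPM in those of MOET calves 3217, 3218 and 5932. The groups were apart, with little spread inside either. The difference was -0.40 ± 0.0888 (SE) on the log2 scale, with an edgeR FDR of 0.0735. MRPS16 (ENSBTAG00000000950), a small subunit protein of bacterial descent whose loss in humans causes a respiratory chain defect, was at 40.2, 38.9, 33.9 and 38.2 CPM in IVP and 46.6, 54.5 and 48.3 CPM in MOET muscles. Its groups did not overlap, and its difference was -0.38 ± 0.098 (SE), with an edgeR FDR of 0.094. MRPS28, named by the muscle table, was at 13.4, 12.6, 12.4 and 15.2 CPM in IVP and 14.7, 14.9 and 17.8 CPM in MOET muscles, and here IVP calf 5841 fell within the MOET range.

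All 4 IVP muscles were below all 3 MOET muscles for 8 of 31 genes, 25.8% (background 8.66%). Calf 5841, which stood apart in liver, did not do so in muscle, where it was highest for 4 genes and lowest for 4. The highest of the 7 calves was most often MOET calf 5932 (13 genes) or 3218 (9 genes), and the lowest was IVP calf 3209 for 14 genes and 5833 for 9. The mean log2 CPM over the genes reached 4.90 ± 0.09 (SD, n = 4) for IVP muscles and 5.05 ± 0.059 (SD, n = 3) for MOET muscles. Both full siblings of IVP origin were below both of MOET origin for 10 genes (background 23.5%).

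The difference between the organs was tested itself, as the IVP effect in muscle minus that in liver in 1 fit over the 16 libraries. It was negative for 31 of 31 genes (background 48.5%), with a median of -0.82 on the log2 scale against 0.026 over all 15237 genes. By edgeR, 13 genes were called, all of them with the lower IVP effect in muscle (background 4.25% in that direction, 8.99% in either). The 8 large subunit genes among them were MRPL23, MRPL36, MRPL40, MRPL41, MRPL46, MRPL52, MRPL54 and MRPS18A, and the 5 small subunit genes were MRPS2, MRPS16, MRPS24, MRPS26 and MRPS28. MRPS28 differed by -0.72 ± 0.192 (SE), with an FDR of 0.0386. It was named by the table that used muscle RNA, so none of the 13 was named without RNA of these libraries. The 3 genes named by methylation only, MRPL13, MRPL45 and MRPS9, were not called, with FDR of 0.0886, 0.115 and 0.352. Because each calf gave both organs, a fit with the calf as a block was also run. It called 8 of the 13 (background 4.68%) and no other of the 31 genes, losing MRPL46, MRPS2, MRPS18A, MRPS26 and MRPS28, whose FDR lay between 0.0523 and 0.0572.

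MRPL23 (ENSBTAG00000000103), which lies at the exit of the peptide tunnel, had the largest difference between the organs. Its liver level was 296.0, 377, 232 and 738 CPM in IVP calves 3208, 3209, 5833 and 5841, and 138, 185 and 154 CPM in MOET calves 3217, 3218 and 5932. In muscle it was at 31.5, 27.6, 24.1 and 26.1 CPM in the same IVP calves and at 35, 37.3 and 42.2 CPM in the MOET calves. The IVP calves were thus all higher in liver and all lower in muscle. The difference between the organs was -1.79 ± 0.412 (SE) on the log2 scale, with an edgeR FDR of 0.0335, or 0.0402 with the calf as a block. The gene it overlaps in RefSeq is a long noncoding RNA, and reads of the pair cannot be told apart.

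MRPL41, whose levels are given above, differed by -1.65 ± 0.347 (SE), with an FDR of 0.028. MRPS26 (ENSBTAG00000000825), a mitochondria-specific protein of the small subunit, was at 21.6, 30.4, 25.7 and 67.7 CPM in IVP and 13.2, 17.3 and 17.1 CPM in MOET livers. In muscle it was at 32.2, 28.5, 27 and 23 CPM in IVP and 34.1, 41.4 and 35.6 CPM in MOET calves. Calf 5841 was the highest of the 7 for MRPS26 in liver and the lowest in muscle. The difference was -1.54 ± 0.42 (SE), with an edgeR FDR of 0.0409, or 0.0572 with the calf as a block.

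At the other end, MRPL42 (ENSBTAG00000002708), a mitochondria-specific large subunit protein, differed by -0.23 ± 0.232 (SE), with an FDR of 0.548. It was at 9.94, 12.8, 11 and 15.6 CPM in IVP and 9.01, 11 and 8.58 CPM in MOET livers, and at 18.5, 15.1, 14.2 and 17.3 CPM in IVP and 14, 16.7 and 13.9 CPM in MOET muscles. IVP and MOET calves overlapped in both organs. MRPS9 differed by -0.25 ± 0.176 (SE) and MRPL19 by -0.33 ± 0.188 (SE), with FDR of 0.352 and 0.247. In muscle, MRPS9 was at 15.6, 13.9, 14.2 and 16 CPM in IVP and 14.2, 15 and 15.1 CPM in MOET calves, with overlap. MRPL19 was at 23.9, 17.9, 17.7 and 19.7 CPM in IVP and 21.2, 23.4 and 21.6 CPM in MOET muscles, where only calf 3208 was above the MOET calves. In muscle, MRPL13 was at 26.9, 23.5, 25.5 and 24.6 CPM in IVP and 25.3, 28.8 and 27.7 CPM in MOET calves, and MRPL45 at 41.7, 35, 32.4 and 42.5 CPM in IVP and 41.6, 44.6 and 42.2 CPM in MOET calves. Both pairs of groups overlapped.

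**Figure D3:**
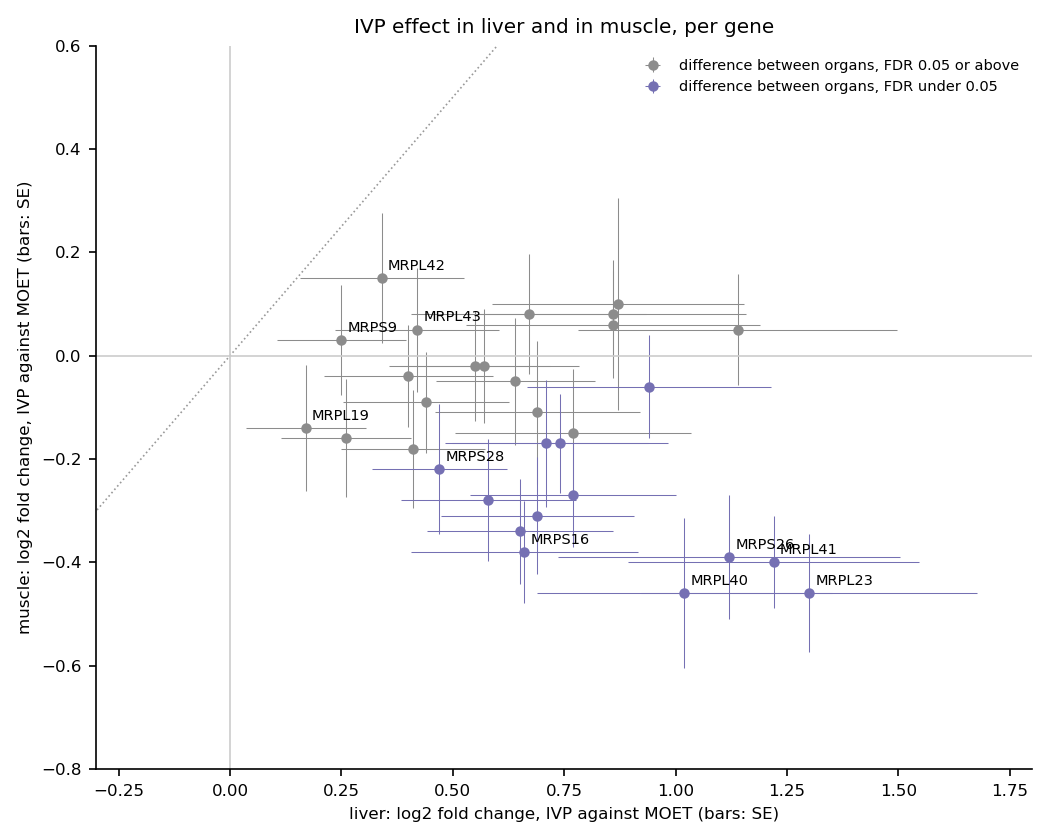
Fitted IVP effect (log2 fold change against MOET) in liver (x axis) and muscle (y axis) for each of the 31 genes, with SE bars. The dotted line marks equal effects, and all points lie below it. Purple points are the 13 genes whose difference between the organs had an FDR under 0.05.

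The number of calls between the organs changed with the calves used. None of the 31 was called without IVP calf 3209 or without MOET calf 3217, 3218 or 5932, 1 was called without IVP calf 5833 (background 0.501%), 14 without 5841 (background 10.5%), 19 without 3213 (background 14.1%) and 21 without 3208 (background 16.4%). Where none was called, 0 to 43 of all genes were, and unadjusted p was still under 0.05 for 19 to 23 of the genes. The median stayed between -1.0 and -0.69 over these fits. In the 4 full siblings alone the median was -0.57, and none was called, with unadjusted p under 0.05 for 19. Over all calves, DESeq2 called 20 (background 18.4%) and the fit without the age term 24 (background 26.6%), with 31 of 31 genes negative in both. When libraries were scaled by total counts alone, 31 of 31 genes were again negative and 5 were called (background 6.74%), and the split over all genes moved from 722 higher and 648 lower to 840 higher and 187 lower.

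**Figure D4:**
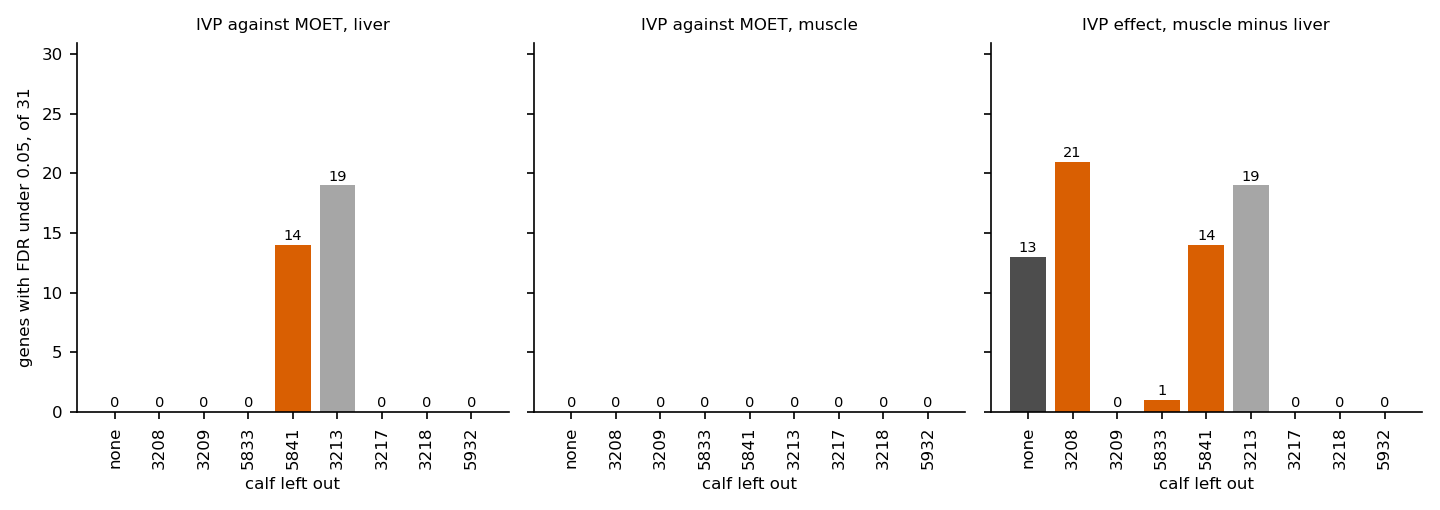
Number of the 31 genes with an FDR under 0.05 when no calf or 1 calf was left out, for the IVP effect in liver, in muscle and for the difference between the organs. Orange bars leave out an IVP calf and light grey bars a MOET calf. The counts run from 0 to 19 in liver and from 0 to 21 for the difference, and stay at 0 in muscle.

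Liver and muscle were also compared directly, with the mean over both origins. Of the 31 genes, 24 were lower and 2, MRPL19 and MRPL23, higher in liver at an FDR under 0.05 (background 83.0% in either direction, 39.0% lower and 44.0% higher). The median ratio was -0.83 on the log2 scale (1.78-fold lower in liver), against 0.095 over all genes. This ratio depends on the scaling. With total counts alone the median over all genes was 0.77 and that of the 31 genes -0.18, and 13 of the 31 were then positive, with 7 called higher and 12 lower. The calls over all genes then moved from 6708 higher and 5937 lower to 9379 higher and 3642 lower. Relative to the median of all genes, the 31 genes were at -0.93 with the one scaling and -0.95 with the other.

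MRPL21 (ENSBTAG00000004348), a large subunit protein of bacterial descent, had the smallest ratio. Its level was 9.65, 10.5, 10.7 and 25.7 CPM in liver and 57.9, 47.5, 57.3 and 55.3 CPM in muscle of IVP calves 3208, 3209, 5833 and 5841. In MOET calves 3217, 3218 and 5932 it was at 5.44, 6.96 and 5.86 CPM in liver and 52.5, 51.5 and 56.1 CPM in muscle. Liver was below muscle in every calf, and the ratio was -2.52 ± 0.188 (SE), with an edgeR FDR of 2.64e-09. MRPS25 (ENSBTAG00000013723), a mitochondria-specific small subunit protein, was at 11.7, 13.1, 15.4 and 30.8 CPM in IVP and 8.13, 10.2 and 9.72 CPM in MOET livers. In muscle it was at 61.4, 53.2, 61.2 and 65 CPM in IVP and 57.2, 59.2 and 58.3 CPM in MOET calves. Its ratio was -2.19 ± 0.174 (SE), with an FDR of 6.27e-09, and the muscle levels of the 2 origins overlapped.

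In the opposite direction, MRPL23 was 8-fold higher in liver than in muscle (3.0 ± 0.211, SE, on the log2 scale, FDR of 1.3e-09), and liver was above muscle in each of the 7 calves. MRPL19 was 1.39-fold higher (0.47 ± 0.091, SE, FDR of 0.000163), again in each of the 7 calves, as the levels above show. MRPS9 was not called, with a ratio of 0.01 ± 0.0849 (SE) and an FDR of 0.881, but was among the 7 called higher in liver with total counts alone. The 4 genes of the central protuberance of the large subunit, MRPL38, MRPL40, MRPL46 and MRPL48, had a median of -1.28, and 3 of them were called lower in liver. Without MRPL23 the median of the remaining 30 genes was -0.84. Liver was below muscle in all 7 calves for 15 of the 31 genes (background 31.8%) and above it in all 7 for MRPL19 and MRPL23 (background 36.0%).

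The fitted ratio was higher in IVP than in MOET calves for 31 of 31 genes, which is the same contrast as the difference of the IVP effect between the organs. Its median was closer to 0 in IVP calves. MRPL19 and MRPL23 moved away from 0, from 0.31 and 2.11 in MOET to 0.64 and 3.89 in IVP calves. In MOET calves, 27 genes were called lower in liver (background 35.9%), with a median of -1.26, and in IVP calves 15 (background 36.2%), with a median of -0.40. The median ratio over the 31 genes was -1.37, -1.25 and -1.37 in MOET calves 3217, 3218 and 5932, and -0.80, -0.39, -0.52 and 0.08 in IVP calves 3208, 3209, 5833 and 5841. The 2 origins did not overlap, and calf 5841 was alone above 0, with liver below muscle for 15 of 31 genes, compared to 24 to 29 in the other calves. Over all genes, the median ratio by calf was between 0.05 and 0.15. The ratio was higher in all 4 IVP than in all 3 MOET calves for 26 of 31 genes, 83.9% (background 15.7%). The other 5 were MRPL28, MRPL42, MRPL43, MRPL45 and MRPS9. Most of the 31 genes were named through liver RNA of these libraries, and a higher IVP level in liver raises the ratio. The share over the 31 is therefore no independent evidence. Of the genes named without liver RNA, MRPL13, MRPL19 and MRPS28 were among the 26, and MRPL45 and MRPS9 were not.

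**Figure D5:**
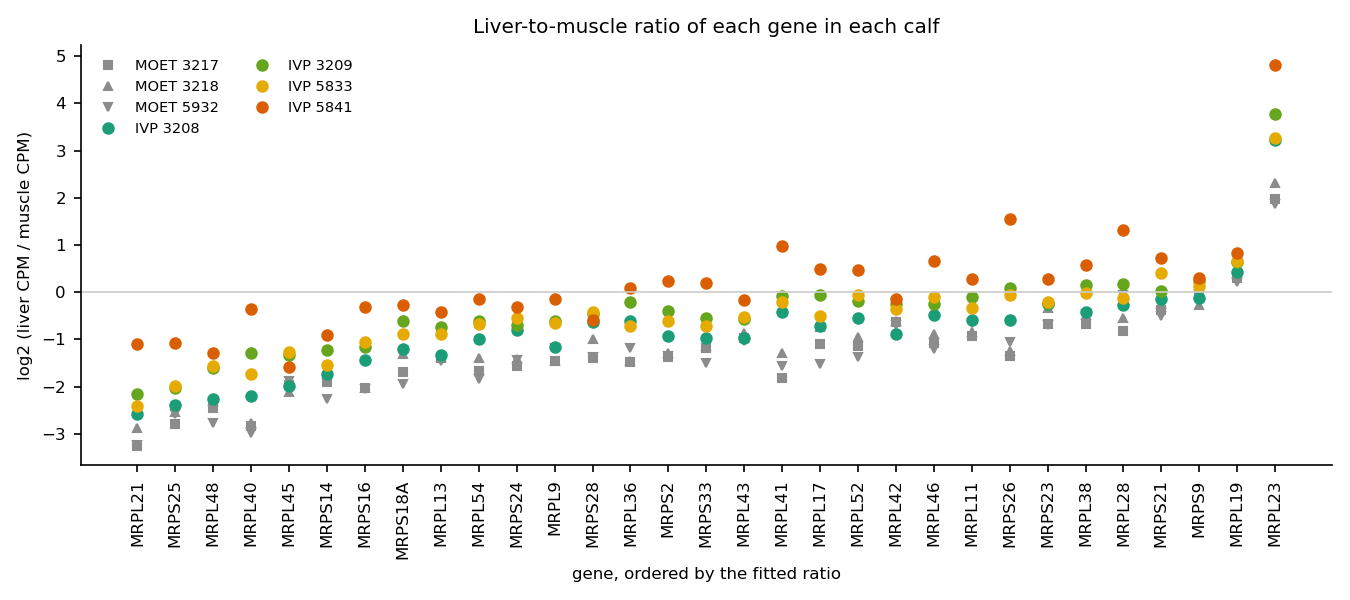
Log2 ratio of liver CPM to muscle CPM in each calf for the 31 genes, ordered by the fitted ratio. Grey symbols are MOET calves and coloured circles IVP calves. Most points are below 0 with the scaling used here, MRPL23 stands apart above 0, and IVP calf 5841 (orange) is the highest for most genes. With total counts alone, 13 of the 31 fitted ratios are above 0.

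Other genes of mitochondrial translation were read from lists, of which 50% or fewer could be named, so that counts hold for the named genes alone. Their genes were named through the study's tables, selected in part on these libraries, so calls among them are no independent evidence. Over all genes, 8.99% were called in the test of the difference between the organs, the background for the lists below. Of 6 mitoribosomal proteins with other symbols, 3 were named. GADD45GIP1, a large subunit protein, and AURKAIP1, a small subunit protein, passed the test of the difference between the organs with -1.46 ± 0.372 and -1.38 ± 0.373 (SE), at FDR of 0.037 and 0.0395. Both were named through liver RNA of these libraries. GADD45GIP1 ranged from 15 to 38.9 CPM in IVP and from 9 to 12.8 CPM in MOET livers, and from 19.8 to 26.1 CPM in IVP and from 25.7 to 32.1 CPM in MOET muscles. The liver groups did not overlap and the muscle groups did, narrowly. DAP3, which binds GTP in the small subunit, had a difference of 0.40 ± 0.178 (SE) in the other direction, with an FDR of 0.142. It was named by methylation, and its fitted log2 difference in liver was -0.09.

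Of 5 named translation factors, 1 was called between the organs: MRRF, the ribosome recycling factor, at -0.89 ± 0.246 (SE) and an FDR of 0.0416. The elongation factor GFM1 had the lowest p of this list, with 14.7 to 17 CPM in IVP and 20.1 to 22.4 CPM in MOET livers and a log2 difference of -0.40 (FDR of 0.125). Every IVP liver was below every MOET liver for this gene. Of 6 named assembly factors, 1 was called between the organs, with a higher IVP effect in muscle. In this list the RNA methyltransferase MRM1 had 7.54 to 15.1 CPM in IVP and 5.08 to 6.63 CPM in MOET livers (log2 difference 0.87, FDR of 0.125). Of 6 named genes for charging mitochondrial transfer RNA, 1 was called between the organs, with a lower IVP effect in muscle. Among these, alanyl-transfer RNA synthetase AARS2 had 20.6 to 22.9 CPM in IVP and 15.4 to 17.1 CPM in MOET livers (log2 difference 0.38, FDR of 0.125).

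For the 4 named regulators of mitochondrial gene expression, the IVP effect was higher in muscle than in liver for 4 of 4 (7851 of all 15237 genes). Of them, 2 were called between the organs (background 8.99%). TFAM, GABPA and POLRMT were named through liver RNA of these libraries. PPARGC1A was named without it and had a difference of only 0.02 ± 0.359 (SE). Its fitted level was higher in IVP calves in both organs, by 0.43 in liver and 0.48 in muscle. None of the 13 proteins encoded by mitochondrial DNA itself could be named. TFAM, which packages and transcribes mitochondrial DNA, ranged from 1.76 to 3.74 CPM in IVP and from 4.67 to 5.57 CPM in MOET livers, and from 4.41 to 5.51 CPM in IVP and from 3.52 to 4.37 CPM in MOET muscles. The groups did not overlap in either organ. Its difference between the organs was 1.34 ± 0.298 (SE), with an edgeR FDR of 0.0314. GABPA, a subunit of the transcription factor that drives many nuclear genes for mitochondrial proteins, differed by 0.69 ± 0.179 (SE), with an FDR of 0.0371. It ranged from 5.66 to 7.02 CPM in IVP and from 8.15 to 9.66 CPM in MOET livers.

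Markers of other cells also differed between the origins in the same libraries. The summed level of 4 fibroblast genes was 396 to 523 CPM in IVP and 626 to 660 CPM in MOET livers, and 1025 to 1468 CPM in IVP and 1651 to 2039 CPM in MOET muscles. The sum was lower in every IVP than in every MOET library of the same organ. In liver this came from the collagens COL1A1, COL1A2 and COL3A1 (log2 differences -0.55, -0.75 and -0.55). DCN, which is no collagen, had a mean of 135 CPM in IVP and 133 CPM in MOET livers. In muscle DCN was lower in IVP calves (-0.47). COL1A2, a fibrillar collagen, had the lowest p of these genes, with 28.7 to 38.5 CPM in IVP and 54.3 to 61.6 CPM in MOET livers (edgeR FDR of 0.125). The sum of 2 endothelial genes was 61.1 to 75.4 CPM in IVP and 78.6 to 98.6 CPM in MOET livers, and 108 to 172 CPM in IVP and 90.1 to 101 CPM in MOET muscles. Of these, CDH5, the cadherin of endothelial junctions, had 44.1 to 71.8 CPM in IVP and 30.1 to 36 CPM in MOET muscles (FDR of 0.0782). The 3 hepatocyte genes summed to 5659 to 7672 CPM in IVP and 4113 to 4801 CPM in MOET livers. Most of that sum was TTR, the thyroid hormone carrier transthyretin, with a mean of 5093 CPM in IVP and 3271 CPM in MOET livers. APOA1, the main protein of high-density lipoprotein, had the lowest p of the 3 (log2 difference 1.66, FDR of 0.125). APOB, the main protein of low-density lipoprotein, went the other way, with a mean of 653 CPM in IVP and 1041 CPM in MOET livers (log2 difference -0.67, FDR of 0.125). In muscle, MYH7, the slow myosin heavy chain of oxidative fibres, had 6363 to 18195 CPM in IVP and 2338 to 4953 CPM in MOET calves (log2 difference 1.65, FDR of 0.0846), the lowest p of the 4 muscle markers. MYH2, a fast myosin heavy chain, was also fitted higher in IVP muscle (0.79), while ACTA1, the skeletal actin, and TNNT3, the fast troponin T, were fitted lower (-0.29 and -0.37). The 4 muscle markers together ranged from 131992 to 177253 CPM in IVP and from 153254 to 178730 CPM in MOET muscles. The part of cell composition in the differences of the mitoribosomal genes was not tested, and leukocyte, adipocyte, erythroid and bile duct markers could not be named.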

How the data were processed

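The authors filtered reads of 16 unstranded, polyadenylated libraries with SOAPnuke, aligned them to bosTau9 with STAR (version 2.7) and counted them per Ensembl gene with HTSeq. The deposited estimated counts are whole numbers, adjusted for age with sva by a model not given in the sources used here, and were not normalized for library size. They are therefore not reads as counted, although the design had assumed counts. The table held 0 further columns of per-sample values and no row without a gene.

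Groups came from the sample labels. In each organ, edgeR (version 4.0.16) was run with filterByExpr (minimum count 10, minimum total 15), TMM and a quasi-likelihood test of origin with age as covariate, with Benjamini-Hochberg adjustment over all genes at 0.05. The organs were compared in 1 fit over 16 libraries with 1 age slope per organ. DESeq2 (version 1.42.0) was an alternative, in R 4.3.3. Python 3.11.15 with matplotlib 3.10.9 drew the figures. All 3 fits were also run on simulated counts, drawn independently for each library. The simulation held no prior age adjustment, no pairing within calves and no kinship, so it cannot show how the fits behave under these. CPM were scaled over all 16 libraries, and log2 CPM by organ used a prior count of 2.

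Each of the 8 calves gave 1 library per organ, which pairs the libraries. Across genes, how the liver and the muscle of 1 calf departed from their groups correlated between -0.091 and 0.178, above 0.1 in 4 calves. The samples are separate calves, but the p-values take related calves as independent.

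Members, lists and tests were chosen with earlier results of these data known, and roles and span were added after the values were seen. Gene names came from the study's supplementary tables, which pair 4176 IDs with a symbol. Their columns of fold changes and p-values were not used. Values by calf are given for the 5 genes named without liver RNA, the gene of each subunit with the lowest p in each organ, the 2 largest and 2 smallest ratios between the organs, the 3 largest and 3 smallest differences of the IVP effect, and, from each list, the gene with the lowest p.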

Additional observations from a re-analysis of the deposited data

Results flagged for a closer look

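Of 64 groups of 4 IVP values on the log2 CPM scale, 4 held 1 calf apart from the rest, judged by the gap to its neighbour as a share of the range. Chance alone marks about 1 in 20 such groups. Calf 5841 was the highest in liver for MRPL21 (gap 0.892 of the range), MRPL43 (0.884) and MRPS33 (0.875), and calf 3208 was the highest in muscle for MRPL9 (0.969). MRPL9 stood at 95.6 CPM in the muscle of that calf and at 77.8 to 78.3 CPM in the other IVP calves.

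The IVP effect differed between muscle and liver, by edgeR's test of the difference itself, for 13 genes. The differences on the log2 scale were -1.79 for MRPL23, -1.65 for MRPL41, -1.54 for MRPS26 and -1.51 for MRPL40. They were -1.07 for MRPL52 and MRPS16, -1.04 for MRPL54 and MRPL46 and -1.03 for MRPL36. The smallest were -0.94 for MRPS2, -0.91 for MRPS18A, -0.89 for MRPS24 and -0.72 for MRPS28. Leaving out any 1 of calves 3209, 3217, 3218 and 5932 left 0 of these calls.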

How the results depend on the processing

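There were 17 alternatives for each organ and 19 over both organs, of which 2 each, both without calf 5841 and with no age term, were chosen after seeing the data. The number of mitoribosomal genes called in liver, 0 by edgeR with age, was 15 with DESeq2, 24 with no age term, 0 to 19 with 1 calf left out, 25 without calf 5841 and the age term, and 14 without calves 3213 and 5841 and the age term. In muscle, also 0, it was 3 with DESeq2, 6 with no age term and 2 without calf 5841 and the age term. With neither calf 3213 nor the age term, 0 were called in either organ. The difference of the IVP effect between the organs was called for 13 genes, for 5 with total counts as the scaling, 20 with DESeq2, 24 with no age term, 0 to 21 with 1 calf left out, 0 in the full siblings and 24 without calf 5841 and the age term. With the calf as a replicate block it was called for 8, and the count over all genes fell from 1370 to 713. Between liver and muscle the block moved neither the 26 genes nor the count over all genes by over 1.5 times. The median ratio of liver to muscle was -0.83, or -0.18 with total counts. The other medians, and the 26 genes called between liver and muscle, moved by less than the spread between calves or by less than 1.5 times. Over all genes, calls ran from 1 to 2187 in liver, 6 to 350 in muscle and 0 to 2514 for the difference with 1 calf left out. Why the age term and single calves change these counts was not tested.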

Other observations

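Genes for cytosolic ribosomal proteins and for respiratory complex I, which like the mitoribosomal genes are named here through the study's tables and were listed with their results known, had the following values. All 56 named cytosolic ribosomal protein genes had a higher fitted level in IVP livers (median log2 difference 0.85, background 49.7%). All 56 had a lower one in IVP muscles (median -0.26, background 47.7%). Of them, 37 passed edgeR's test of the difference between the organs, with the lower IVP effect in muscle (background 4.25%). The 18 named NDUF subunits of complex I, which carry electrons into the respiratory chain, had a median of 0.67 in liver. In IVP livers 16 of 18 were higher (background 49.7%). In muscle their median was 0.10, with 11 of 18 higher (6728 of all 12854 genes). The IVP effect was lower in muscle than in liver for 16 of the 18 (background 48.5%), with a median difference of -0.66. Of the 18, 1 passed the test of the difference between the organs, against that direction, with the higher IVP effect in muscle (background 8.99% in either direction). In liver against muscle, 17 of the 18 NDUF genes were called lower in liver (background 39.0% lower, 83.0% in either direction). Their median ratio was -2.15, compared to -0.36 for the cytosolic and -0.83 for the mitochondrial ribosomal proteins.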
